A study of Mus musculus with 203 samples.

Results

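The genes described here are 39 histone lysine methyltransferases and demethylases, enzymes that add methyl groups to lysines of the histone tails (writers) or take them off (erasers). They were chosen by gene symbol and not by a measured value, though with earlier results of these data known, and all 39 are among the 25094 genes listed for RAW cells and passed the filter on low values that left 12905 genes for testing. The 22 writers and 17 erasers were grouped by the lysine they act on: 9 writers and 4 erasers of H3K4, 6 writers and 8 erasers of H3K9, 2 writers and 2 erasers of H3K27, 4 writers and 3 erasers of H3K36, and Dot1l, the writer of H3K79. Phf8, grouped with H3K9, is also known for demethylating H4K20. Kdm1a, which encodes the H3K4 demethylase LSD1 and was the target of the knockdown, was not counted as a member and serves as the check of the labels.

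RNA-seq was carried out in RAW264.7 cells (RAW cells), a macrophage-like line from a tumour of BALB/c mice, with 4 groups of 4 libraries. Cells carried a lentiviral short hairpin RNA against GFP (shGFP, control) or against Kdm1a (shKDM1A), were selected with puromycin, and were left untreated (control) or given 20 ng/ml of IL4 for 6 h. Each line carried 1 hairpin, so that loss of KDM1A cannot be told apart from other effects of that hairpin or of the line, and nothing in the labels says that the 4 libraries of a group came from separate cultures, so p-values measure the spread between these libraries. Values are the authors' normalized log2 expression values, differences are log2 differences between group means with a standard error (SE) from limma, and a gene is called when its adjusted p from limma, over all 12905 genes, is under 0.05.

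As background, methylation of H3K4 marks promoters and enhancers in use, and is laid down by the large MLL proteins (Kmt2a to Kmt2d) and the SET1 proteins (Setd1a and Setd1b), which work with shared COMPASS subunits. Kmt2e (MLL5) was listed with the H3K4 writers by its family name and is not known as a catalytic subunit of COMPASS. Methylation of H3K9 and H3K27 goes with silencing, the latter through the Polycomb repressive complex PRC2 with Ezh1 or Ezh2 as its catalytic subunit, while methylation of H3K36 and H3K79 follows transcription through gene bodies. In macrophages the H3K27 demethylase Kdm6b is known as a gene induced by inflammatory stimuli and by IL4. LSD1 is known from corepressor complexes, while the authors of these data report it as a coactivator of IL4 target genes in macrophages.

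Depth per library was 17554721 to 27782568 tags. Kdm1a was at 11.21, 11.23, 11.13 and 11.17 in the shGFP control libraries and at 11.12, 11.10, 11.12 and 11.07 with IL4, against 10.36, 10.32, 10.23 and 10.29 in shKDM1A control and 10.32, 10.33, 10.34 and 10.28 in shKDM1A IL4. The shGFP and shKDM1A libraries did not overlap, and Kdm1a fell by 0.88 (SE 0.03, adjusted p = 5.6e-13) without IL4 and by 0.79 (SE 0.03, adjusted p = 2.2e-12) with IL4, so its RNA decreased by 45.8% and by 42.0%. In bulk RNA, fewer cells expressing a gene and less RNA per cell cannot be told apart. All 6 macrophage markers were present, between 9.79 and 17.18, with 5 called higher and 1 lower in shKDM1A cells in both IL4 states, and their summed level on the log2 scale was 17.43 to 17.49 in shGFP control, 17.17 to 17.20 in shGFP IL4, 17.67 to 17.70 in shKDM1A control and 17.61 to 17.71 in shKDM1A IL4. The part of this shift in the results was not tested. By contrast, every listed marker of T cells, B cells and fibroblasts was at 0 or below and 3 of 4 neutrophil markers were below 1 in every library. Libraries 1 and 3 of the shKDM1A IL4 group stood apart in long transcripts: over the 807 genes with transcripts longer than 7 kb, their median difference from the mean of all libraries was -0.13 and -0.09, against -0.06 to 0.06 in the other 14. Member transcripts are long, with a median of 6.33 kb against 2.77 kb over all genes tested, so 2 fits were added, in which those libraries were left out or the trend over transcript length was removed from every library. For called results of the shKDM1A IL4 group, their values are given where they changed the call or moved the value by over 1.5 times.

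The members spanned a wide range of levels in untreated shGFP cells (the plot of levels per length). On the scale of log2 value less log2 transcript length in kb, their median level was 7.28 against 7.62 over all genes tested, and 17 of 39 lay above the latter. The highest was the H3K9 dimethylase Ehmt2 (G9a) at 10.33 ± 0.02 (SD, n = 4), followed by Smyd2 at 9.98 ± 0.04, the PRC2 subunit Ezh2 at 9.68 ± 0.03, the heterochromatin H3K9 writer Suv39h1 at 9.33 ± 0.04 and Dot1l at 8.97 ± 0.04. The ranges of these first 5 did not overlap each other. Of the 38 pairs of neighbours in the whole order, 25 had overlapping ranges, beginning with Dot1l and Setdb1, and such neighbours did not differ beyond the spread of their libraries. The 2 lowest, Nsd1 at 3.52 ± 0.04 and Kdm5b at 3.26 ± 0.06, stood apart from all others, the next being Smyd3 at 5.53 ± 0.08.

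**Figure D1:**
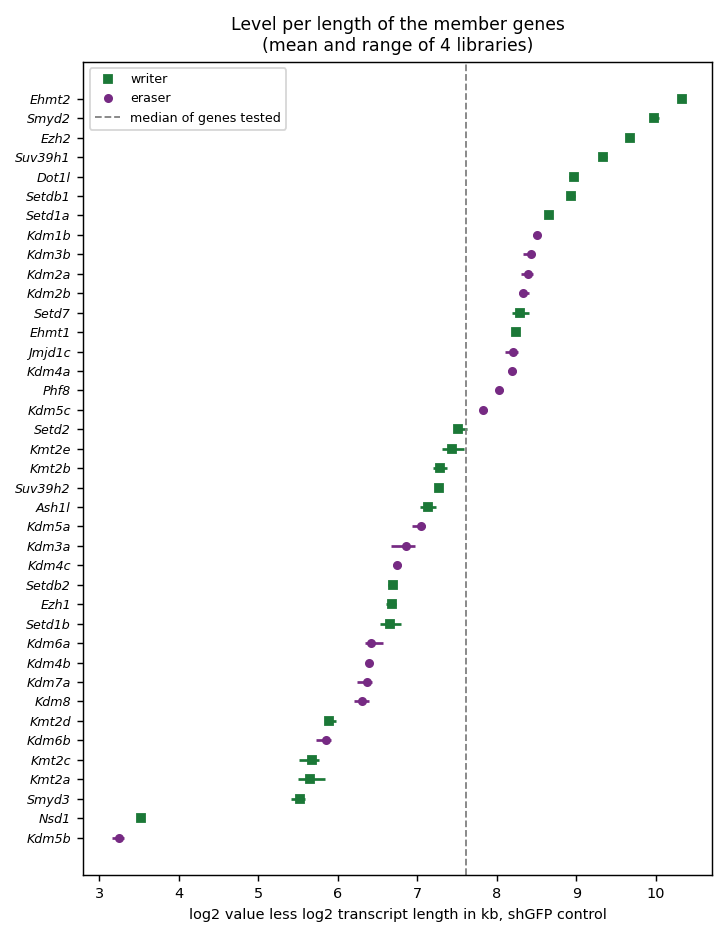
Level of each member in the 4 untreated shGFP libraries, as log2 value less log2 transcript length in kb (horizontal axis), with points for means, lines for the lowest to highest library, squares for writers and circles for erasers. Ehmt2 is highest at 10.33 and Nsd1 and Kdm5b lie below 4, while the dashed line marks the median of all genes tested at 7.62.

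Within families the same member led in all 16 libraries. The level per length of Ezh2 was 2.65 to 3.07 above that of Ezh1 on the log2 scale, that of Ehmt2 was 1.99 to 2.30 above that of Ehmt1, and that of Suv39h1 was 1.93 to 2.23 above that of Suv39h2. Setd1a led Setd1b by 1.76 to 2.17 and Setdb1 led Setdb2 by 2.11 to 2.49. Setdb2 shares 38872 bases of its gene span with Gm45935 on the same strand, so its counts may hold reads of that gene. The margin was small for the H3K27 erasers, where Kdm6a led Kdm6b by 0.43 to 0.89, and for the H3K36 erasers, where Kdm2a led Kdm2b by 0.01 to 0.21. Among the JARID1 erasers of H3K4, Kdm5c led Kdm5b by 4.57 ± 0.10 (SD, n = 4) in shGFP control cells and by 3.85 ± 0.05 in shKDM1A control cells.

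Knockdown of Kdm1a without IL4 was followed by the highest called difference of any member in Nsd1, a writer of H3K36 dimethylation, and the next in Kdm5b, an eraser of H3K4 trimethylation. Of the 39 members, 8 were called higher (20.5%) and 7 lower (17.9%), against 19.7% higher and 18.4% lower of all genes tested, so the share called was near the background in both directions. The median difference over the members was -0.04 against -0.00 over all genes. Those higher were Nsd1, Kdm5b, the H3K9 erasers Kdm7a, Kdm4b, Kdm3a and Kdm4c, the H3K27 writer Ezh1, and Dot1l. Those lower were the H3K4 erasers Kdm1b and Kdm5c, Phf8, Suv39h1, Smyd2, Kdm6b and Ezh2, and none of these 7 fell by as much as 0.3 on the log2 scale. The span of Kdm1b, which fell by 0.11 from a level of 10.81, shares 513 bases on the other strand with Dek, at a mean of 12.93, and the counting did not separate strands. Likewise, spans of genes on the other strand share 878 bases with Kmt2e, 839 with Setd7 and 75 with Setdb1.

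**Figure D2:**
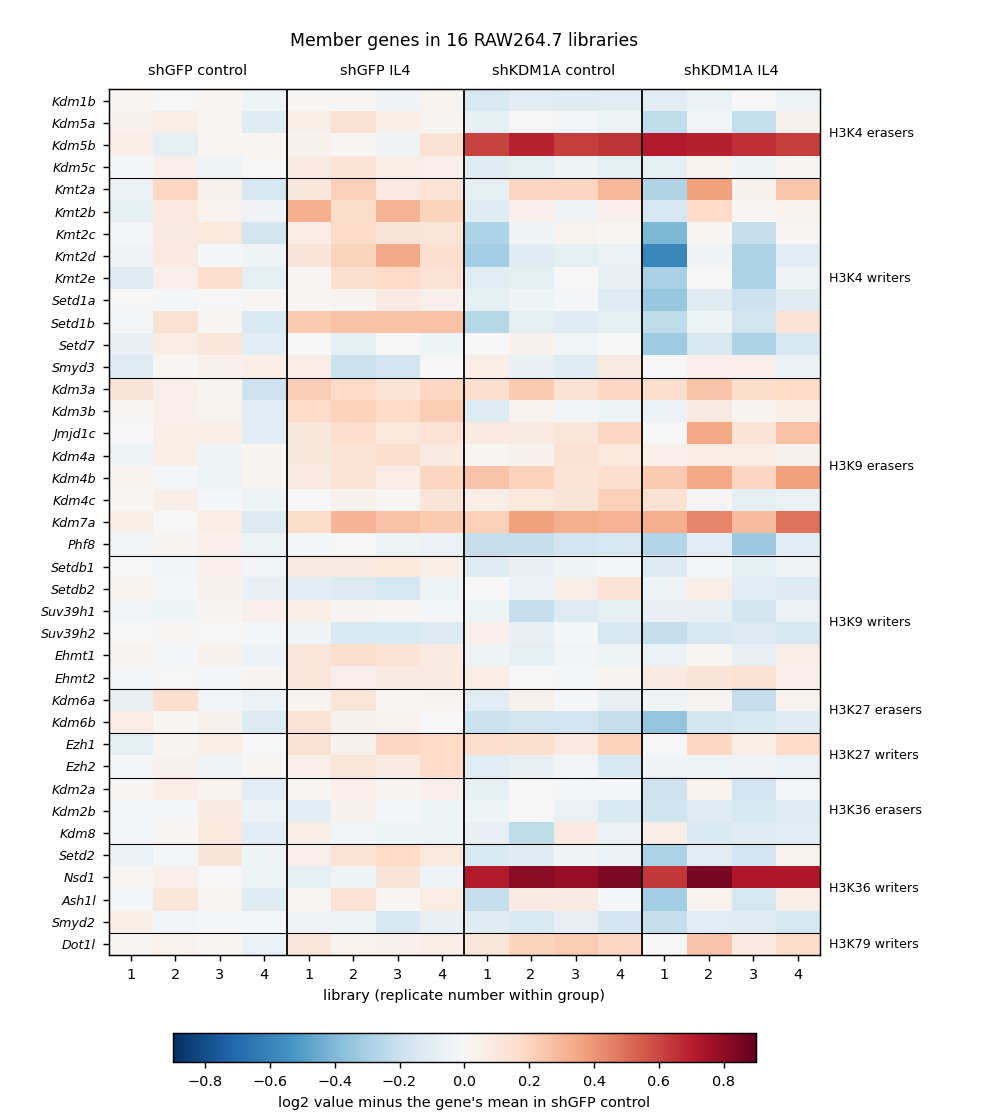
Each row is a member and each column a library, grouped by hairpin and IL4, with the colour giving the log2 value less the gene's mean in the 4 shGFP control libraries (red higher, blue lower). Nsd1 and Kdm5b are higher in all 8 shKDM1A libraries, and several H3K4 writers are lower in libraries 1 and 3 of the shKDM1A IL4 group.

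Nsd1 (NM_008739, mm9 chromosome 13 from 55311143 to 55419686, plus strand, transcript of 12.76 kb) was at 7.21, 7.24, 7.19 and 7.15 in shGFP control libraries and at 7.91, 8.01, 7.98 and 8.04 in shKDM1A control libraries. With IL4 it was at 7.11, 7.16, 7.31 and 7.16 in shGFP cells and at 7.83, 8.05, 7.92 and 7.92 in shKDM1A cells. Every shKDM1A library was above every shGFP library, and IL4 left the groups of each line overlapping. The difference was 0.79 (SE 0.05, adjusted p = 7.5e-10), or 1.73-fold, without IL4 and 0.74 (SE 0.05, adjusted p = 1.5e-09), or 1.68-fold, with IL4. Nsd1 was among the lower-expressed genes, at the percentile 28.1 of untreated levels, and since the deposited values are pulled together for weakly expressed genes, its change may be understated.

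Kdm5b (NM_152895, mm9 chromosome 1 from 136456755 to 136529455, plus strand, 6.27 kb) was at 5.96, 5.81, 5.92 and 5.92 in shGFP control libraries and at 6.51, 6.60, 6.53 and 6.55 in shKDM1A control libraries. With IL4 it was at 5.94, 5.91, 5.88 and 6.04 in shGFP cells and at 6.61, 6.61, 6.56 and 6.53 in shKDM1A cells. The libraries of the 2 lines did not overlap here either, and the difference was 0.64 (SE 0.04, adjusted p = 6.8e-10), or 1.56-fold, without IL4 and 0.63 (SE 0.04, adjusted p = 8.3e-10), or 1.55-fold, with IL4. The other members of its family did not share this rise: Kdm5c fell by 0.08 and by 0.10, and Kdm5a differed by -0.04 without IL4 (adjusted p = 0.64) and fell by 0.18 with IL4. Neither fall with IL4 was called in the added fits. Kdm5a was then at -0.05 (length trend removed, adjusted p = 0.16) and -0.06 (without libraries 1 and 3, adjusted p = 0.35), and Kdm5c at 0.03 (adjusted p = 0.52) and -0.06 (adjusted p = 0.18). The rises of Nsd1 and Kdm5b were called in all 25 alternative fits, with values from 0.76 to 0.81 for Nsd1 and from 0.61 to 0.66 for Kdm5b without IL4.

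Kdm7a (NM_001033430, mm9 chromosome 6 from 39086619 to 39156772, minus strand, 9.53 kb), which removes methyl groups from H3K9 and H3K27, was at 9.67, 9.62, 9.69 and 9.49 in shGFP control libraries and at 9.84, 9.99, 9.95 and 9.93 in shKDM1A control libraries. With IL4 it was at 9.79, 9.92, 9.88 and 9.86 in shGFP cells and at 9.94, 10.06, 9.91 and 10.11 in shKDM1A cells. The untreated shGFP libraries were the lowest of all 4 groups, while the IL4 groups of the lines overlapped. It rose by 0.31 (SE 0.05, adjusted p = 0.00012) with the knockdown without IL4, by 0.14 (SE 0.05, adjusted p = 0.032) with the knockdown in IL4, and by 0.24 (SE 0.05, adjusted p = 0.0016) with IL4 in shGFP cells. The rise with the knockdown in IL4 was 0.25 (adjusted p = 1.1e-05) with the length trend removed and 0.22 (adjusted p = 0.0053) without the 2 libraries named above. It lost its call when any of 5 libraries was left out, at 0.11 to 0.15. The gene 4930599N23Rik overlaps 11693 bases of the Kdm7a span on the other strand, at a mean of 6.02, and the counting did not separate strands.

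**Figure D3:**
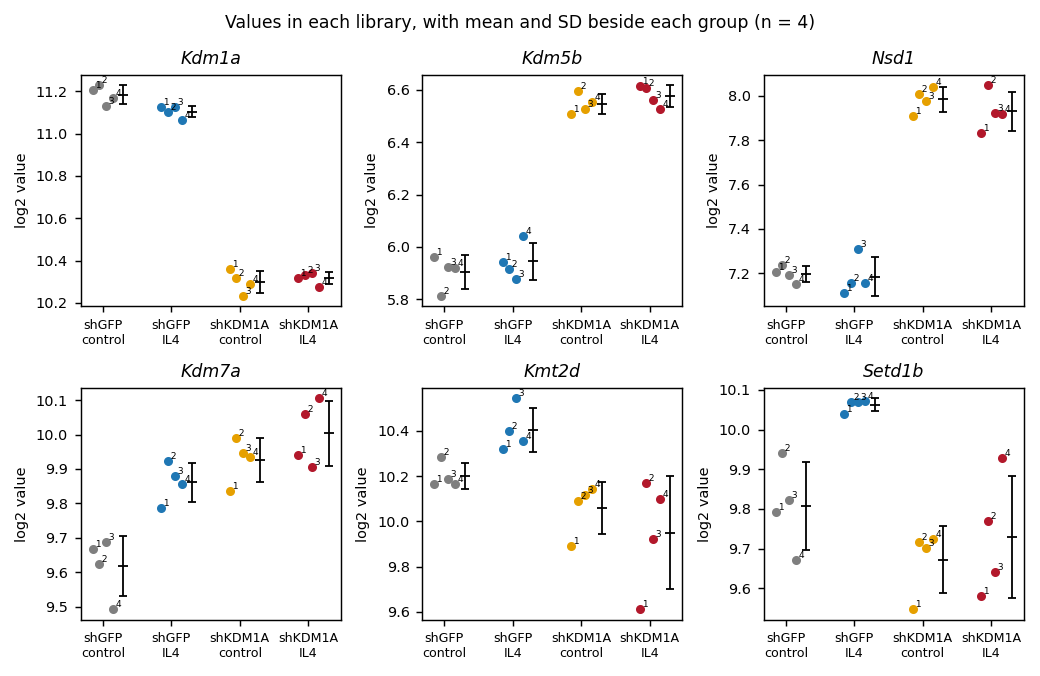
The log2 value in each of the 16 libraries (points, with replicate numbers), with the mean and SD of the 4 libraries beside each group, for Kdm1a and the 5 members that changed by at least 0.3 with the knockdown. Vertical axes differ in range and do not start at 0. Nsd1 and Kdm5b separate the hairpins, Kdm7a is lowest in untreated shGFP cells, and Kmt2d is lowest in shKDM1A IL4 library 1.

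The promoters of Kdm5b and Kdm7a are shown because these members rose with the knockdown in both IL4 states, as did Kdm4b and Nsd1, for which no sequence was used. Each is the 250 bases before the annotated start in RefSeq on GRCm38.p6, which is a later build than the mm9 of the counts, read 5′ to 3′ along the gene's strand, with every CpG dinucleotide in capitals because CXXC domains, which the members Kmt2a, Kmt2b, Kdm2a and Kdm2b carry, bind unmethylated CpG. The first lies at chr1:134559928-134560177 on the plus strand and the second at chr6:39206774-39207023 on the minus strand.
Kdm5b: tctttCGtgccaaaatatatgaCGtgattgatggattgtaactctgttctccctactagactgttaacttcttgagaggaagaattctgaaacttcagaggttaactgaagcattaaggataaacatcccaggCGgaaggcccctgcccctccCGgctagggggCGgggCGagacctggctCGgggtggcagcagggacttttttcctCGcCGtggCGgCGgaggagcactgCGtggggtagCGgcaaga
Kdm7a: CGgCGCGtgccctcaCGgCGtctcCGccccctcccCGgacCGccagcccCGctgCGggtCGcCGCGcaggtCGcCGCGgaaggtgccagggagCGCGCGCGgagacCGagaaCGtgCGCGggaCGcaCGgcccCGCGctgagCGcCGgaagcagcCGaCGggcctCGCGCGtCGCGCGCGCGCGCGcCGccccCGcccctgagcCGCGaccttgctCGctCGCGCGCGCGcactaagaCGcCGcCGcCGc

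The Kdm5b stretch holds 13 CpG and is 54.4% G or C, and that of Kdm7a holds 56 CpG and is 82.0% G or C. Promoters of 28 members were found in the table, in 37 entries with a median of 23 CpG, against 6 over all 32851 entries. The core of the motif of PU.1, the factor that defines macrophages, was searched as GAGGAAG on both strands and was present in 10.6% of all entries and in 3 of the 28 members, namely Kdm5b, 175 bases before its start, Kdm2b and Smyd2. The AP-1 site TGANTCA was present in 6.75% of all entries and in Kdm3a, Kdm4a and Kdm5c. The spacing bound by STAT6, the factor that IL4 activates, TTCNNNNGAA, was present in 5.85% of all entries and among members in Suv39h2. A match is a description of these letters and was not tied to binding here. Entries for Kdm5a, Kmt2b, Kmt2e, Setd1b, Smyd3, Kdm3b, Kdm4b, Kdm6b, Kdm2a, Nsd1 and Ash1l were missing.

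With IL4, the knockdown was followed by lower values in 7 of the 9 writers of H3K4 (the plot of differences with and without IL4), namely Kmt2b, Kmt2c, Kmt2d, Kmt2e, Setd1a, Setd1b and Setd7. Kmt2a was at -0.03 (adjusted p = 0.84) and Smyd3 at 0.09 (adjusted p = 0.26), and the median of the 9 was -0.23. Without IL4 none of the 9 was called in limma, none had an unadjusted p under 0.05, and the median was -0.06. In the test of the difference between the IL4 states itself, none of the 9 was called. In the added fits, Setd1b (-0.13, adjusted p = 0.020) was called lower and Kmt2a (0.17, adjusted p = 0.048) higher without IL4 once the length trend was removed, and Setd1a (-0.06, adjusted p = 0.032) lower when libraries 1 and 3 of the other group were left out. Of all genes, 21% were called higher and 19.3% lower without IL4 in the former fit, and 20.9% and 20.1% in the latter. Over all 39 members, 4 were called higher (10.3%: Kdm5b, Nsd1, Kdm4b and Kdm7a) and 19 lower (48.7%), against 20.9% higher and 19.8% lower of all genes tested. The share lower was thus above the background for all genes, and transcript length moved with it. Among genes longer than 5 kb, 37.5% were called lower and 13.0% higher, against 16.3% and 22.5% of shorter genes. Among members, 16 of the 26 longer than 5 kb were called lower and 4 higher, and 3 of the 13 shorter ones were called lower and none higher.

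**Figure D4:**
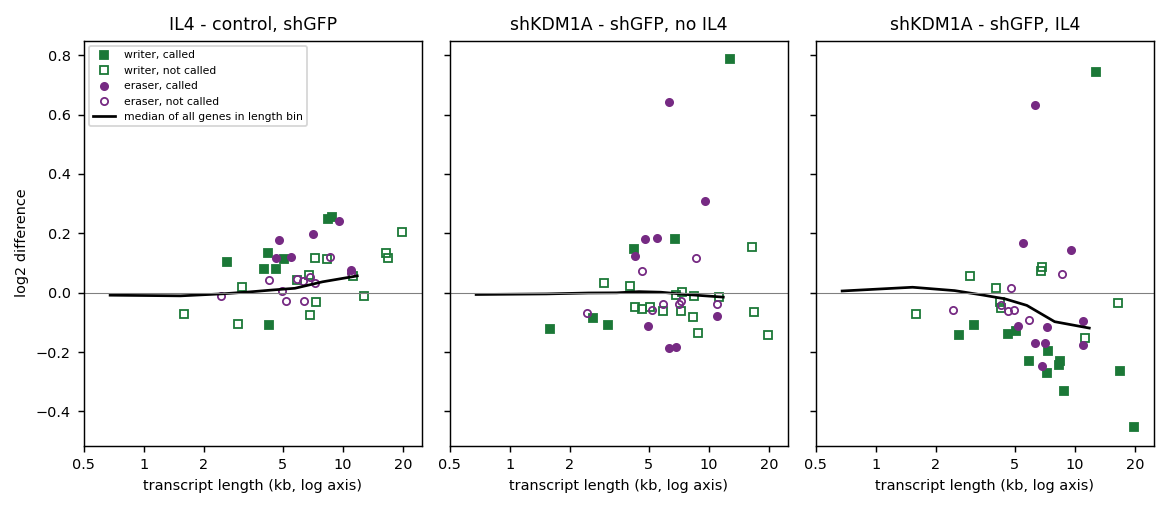
Log2 difference (vertical axis) against transcript length in kb (horizontal log axis) for the members in 3 comparisons, with filled symbols for called members, squares for writers, circles for erasers, and the line for the median of all genes in bins of length. In IL4-treated cells the line falls from 0.02 in transcripts of 1 to 2 kb to -0.12 above 10 kb, and 27 of 39 members lie below the median of their bin, while without IL4 the line stays near 0.

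The count of lower members was smaller in both added fits. With the length trend removed, 6 of the 9 H3K4 writers were called lower (all but Kmt2c of the 7 above), with a median of -0.14, and 15 of all members were lower and 6 higher, against 18.8% and 22.3% of all genes in that fit. Without libraries 1 and 3 of the shKDM1A IL4 group, 3 of the 9 were called lower (Kmt2d, Setd1a and Setd1b), with a median of -0.14, and 8 of all members were lower and 6 higher, against 14.4% and 17.2% of all genes, in a fit with 2 libraries in that group. There the calls of Kmt2b (-0.14, adjusted p = 0.080), Kmt2c (-0.10, adjusted p = 0.35), Kmt2e (-0.14, adjusted p = 0.11) and Setd7 (-0.12, adjusted p = 0.080) were lost, and Setd1a moved from -0.23 to -0.15. With the length trend removed, Kmt2b was at -0.14 and Setd7 at -0.12, both called, and Kmt2c at -0.10 (adjusted p = 0.073). The members called higher in both added fits and not among the 4 above were Dot1l and Jmjd1c, an eraser of the KDM3 family, the latter at 0.16 and 0.19. In libraries 1 and 3, the median H3K4 writer was 0.27 and 0.18 below its mean over all libraries, and in libraries 2 and 4 it was 0.02 above and 0.03 below. Over the 14 libraries other than 1 and 3 it ranged from -0.17, in shKDM1A control library 1, to 0.14. The 8 members called lower in each of the 25 alternative fits were Kmt2d, Setd1a and Setd1b, the H3K9 eraser Kdm3b, the H3K9 writer Setdb1, Kdm6b, Ezh2, and Setd2, the writer of H3K36 trimethylation. The share of all genes called in every fit was not counted, so this number has no background. Whether the long-transcript shift in libraries 1 and 3 is technical was not tested.

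Kmt2d (NM_001033276, mm9 chromosome 15 from 98662100 to 98701636, minus strand, 19.77 kb, the longest member), which methylates H3K4 at enhancers, was at 10.32, 10.40, 10.54 and 10.35 in shGFP IL4 libraries and at 9.61, 10.17, 9.92 and 10.10 in shKDM1A IL4 libraries. Untreated libraries were at 10.17, 10.29, 10.19 and 10.16 in shGFP cells and at 9.89, 10.09, 10.12 and 10.14 in shKDM1A cells. The lines did not overlap in either state, and library 1 was the lowest of each shKDM1A group. With IL4, Kmt2d fell by 0.45 (SE 0.09, adjusted p = 0.00098), or by 0.27 in each of the added fits, and without IL4 the difference was -0.14 (SE 0.09, adjusted p = 0.26). With IL4 in shGFP cells its difference was 0.20 (SE 0.09, adjusted p = 0.13).

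Setd1b (NM_001040398, mm9 chromosome 5 from 123592202 to 123618639, plus strand, 8.84 kb), a catalytic subunit of a SET1 complex, was at 10.04, 10.07, 10.07 and 10.07 in shGFP IL4 libraries and at 9.58, 9.77, 9.64 and 9.93 in shKDM1A IL4 libraries. Untreated libraries were at 9.79, 9.94, 9.82 and 9.67 in shGFP cells and at 9.55, 9.72, 9.70 and 9.72 in shKDM1A cells. The 4 shGFP IL4 libraries lay above all others and close together, while the other 3 groups overlapped. Setd1b rose by 0.26 (SE 0.07, adjusted p = 0.0084) with IL4 in shGFP cells and fell by 0.33 (SE 0.07, adjusted p = 0.00073) with the knockdown in IL4, or by 0.21 (adjusted p = 0.021) without libraries 1 and 3. Without IL4 the knockdown difference was -0.13 (adjusted p = 0.12), and with IL4 in shKDM1A cells the difference was 0.06 (adjusted p = 0.59), or 0.10 (adjusted p = 0.080) with the length trend removed and 0.18 (adjusted p = 0.068) without libraries 1 and 3.

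**Figure D5:**
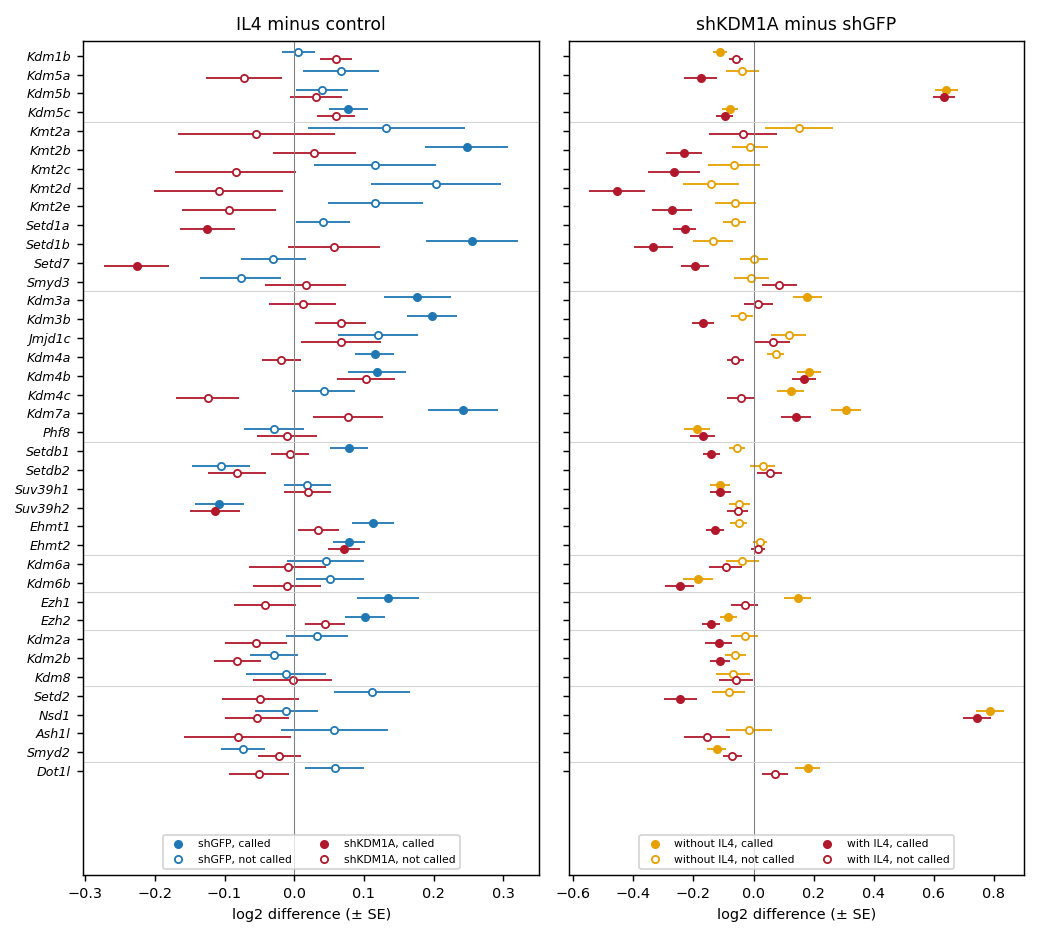
Log2 differences ± SE for each member, from 1 limma model over 16 libraries, with the IL4 response of each line on the left and the knockdown difference in each IL4 state on the right, and filled points for called differences. On the right, Kdm5b and Nsd1 lie beyond 0.6 in both states and 7 of the 9 H3K4 writers are called lower with IL4. On the left, most shGFP points lie above 0.

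Apart from Nsd1, members acting on the other lysines differed by at most 0.31 on the log2 scale with the knockdown, in both directions. Of the 8 erasers of H3K9, 4 were called higher without IL4 (Kdm7a at 0.31, Kdm4b at 0.18, Kdm3a at 0.18 and Kdm4c at 0.12), with a median of 0.12, and with IL4 Kdm4b at 0.17 and Kdm7a remained higher. Of all genes tested, 19.7% were called higher and 18.4% lower without IL4, and 20.9% and 19.8% with IL4. Without shGFP control library 4, Kdm3a was 0.12 higher and still called. Phf8 was lower in both states, at -0.19 and -0.17, but without libraries 1 and 3 its difference with IL4 was -0.07 and not called (adjusted p = 0.082), and with the length trend removed it was -0.11 (adjusted p = 0.0070). Kdm3b, an H3K9 eraser of the KDM3 family, was lower with IL4, at -0.17, or at -0.10 (adjusted p = 0.0065) with the length trend removed and -0.13 (adjusted p = 0.028) without libraries 1 and 3. Of the 6 writers of H3K9, Suv39h1 was called lower in both states at -0.11, and Setdb1 (-0.14) and Ehmt1 (-0.13) were called lower with IL4, Ehmt1 not without libraries 1 and 3 (-0.08, adjusted p = 0.064), while Ehmt2, the most highly expressed, differed by 0.02 in both states and was not called. Some of these calls depended on single libraries. Without IL4, the call of Kdm4c was lost without any of 6 libraries (0.09 to 0.13), that of Suv39h1 without shGFP control 4 or shKDM1A control 2 (-0.10 to -0.08), and that of Kdm5c without any of 5 (-0.08 to -0.06). With IL4, the calls of Kdm5a (-0.15 to -0.14) and Kmt2c (-0.25 to -0.18) were lost without shGFP IL4 library 2 or shKDM1A IL4 library 1 or 3, that of Suv39h1 without shKDM1A IL4 library 3 (-0.09), and those of Kdm2b (-0.09) and Kdm2a (-0.12 to -0.08) without shGFP IL4 library 2 and, for Kdm2a, any of 11 libraries. Without both libraries 1 and 3, Suv39h1 was at -0.09 (adjusted p = 0.11), Kdm2b at -0.08 (adjusted p = 0.15) and Kdm2a at -0.02 (adjusted p = 0.71), and with the length trend removed Kdm2b was at -0.07 (adjusted p = 0.062) and Kdm2a at -0.04 (adjusted p = 0.23).

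For H3K27 the knockdown was followed by lower Ezh2 (-0.08 without IL4, adjusted p = 0.028, and -0.14 with IL4, adjusted p = 0.00078) and lower Kdm6b (-0.18, adjusted p = 0.0067, and -0.25, adjusted p = 0.00072), so a writer and an eraser of the same mark fell in both states. Kdm7a, grouped with H3K9 though it also removes methyl groups from H3K27, was called higher in both states (0.31 and 0.14). Ezh1, which replaces Ezh2 in non-dividing cells, was 0.15 higher without IL4 (adjusted p = 0.015) and differed by -0.03 with IL4 (adjusted p = 0.63), or by 0.04 without libraries 1 and 3 (adjusted p = 0.50), and the X-linked eraser Kdm6a was called in neither. Without IL4, the call of Ezh1 was lost without shGFP control 1 or shKDM1A control 4 (0.12 to 0.13) and that of Ezh2 without any of 4 libraries (-0.08 to -0.06). Of the members grouped with H3K36, Nsd1 was the only one called higher in either state. Smyd2 was called lower without IL4 (-0.12), and with IL4 when the length trend was removed (-0.09, adjusted p = 0.028). With IL4, Kdm2a (-0.12), Kdm2b (-0.11) and Setd2 (-0.24) were called lower, the last at -0.15 in both added fits and called. Dot1l rose by 0.18 without IL4 (adjusted p = 0.0033) and differed by 0.07 with IL4 (adjusted p = 0.20), or by 0.14 (adjusted p = 0.0011) and 0.15 (adjusted p = 0.0056) in the added fits.

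The knockdown comparisons with and without IL4 share no libraries, and their calls can be set side by side. All 4 members called higher with IL4 (100%) were among the 8 called higher without it (50.0%). Of those called lower, 5 (Kdm5c, Phf8, Suv39h1, Kdm6b and Ezh2) were in both, which is 71.4% of the 7 without IL4 and 26.3% of the 19 with IL4, and none was called in opposite directions. Over all genes tested, the shared calls made up 72.1% of those higher without and 68.2% of those higher with IL4, and 58.8% and 54.7% of those lower. Without libraries 1 and 3 of the shKDM1A IL4 group, the members lower in both states were Setd1a, Kdm6b and Ezh2. With the length trend removed they were Setd1b, Phf8, Suv39h1, Kdm6b, Ezh2 and Smyd2. Shares over all genes were not counted for these 2 fits.

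With IL4 in shGFP cells, more members were called higher than lower, and most were not called. Of 39 members, 13 were called higher (33.3%) and 1 lower (2.56%), against 13.1% higher and 13.7% lower of all genes tested, with a median difference of 0.07 against -0.00, and no member changed by 0.3 or more. Of the 8 H3K9 erasers, 5 were higher, namely Kdm7a (0.24), Kdm3b (0.20), Kdm3a (0.18), Kdm4a (0.12) and Kdm4b (0.12). The H3K4 writers Setd1b (0.26) and Kmt2b (0.25), the H3K9 writers Ehmt1 (0.11), Setdb1 (0.08) and Ehmt2 (0.08), both H3K27 writers Ezh1 (0.13) and Ezh2 (0.10), and Kdm5c (0.08) made up the rest. Kdm6b was at 8.61 ± 0.09 (SD, n = 4) without and 8.67 ± 0.06 with IL4, a difference of 0.05 (adjusted p = 0.51). The member called lower was Suv39h2 (-0.11, adjusted p = 0.033), a heterochromatin H3K9 writer whose span shares 10633 bases with Dclre1c on the other strand.

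Over all genes, transcript length moved with the IL4 response as well, with 19.5% of genes longer than 5 kb and 11.8% of shorter genes called higher. Among members the share called went the other way, with 7 of the 26 longer than 5 kb (26.9%) and 6 of the 13 shorter ones (46.2%) called higher. Their median differences kept the order of all genes, at 0.07 in longer and 0.04 in shorter members, against 0.02 and -0.004 over all genes. With the length trend removed, 9 members were called higher and 1 lower, against 13.6% and 14.5% of all genes. The median difference over the members was 0.02 in that fit. The 8 called in each of the 25 alternative fits were Kmt2b, Setd1b, Kdm3a, Kdm3b, Kdm4a, Kdm7a, Ehmt1 and Ezh2, a number with no count over all genes to set beside it. In all, 8 were called when shGFP control library 1 or shGFP IL4 library 1 was left out. Kdm3a was 0.12 higher, and still called, without shGFP control library 4. Calls were lost without any of 10 libraries for Kdm5c (0.06 to 0.09), 8 for Kdm4b (0.09 to 0.13), 8 for Setdb1 (0.07 to 0.08), 7 for Suv39h2 (-0.11 to -0.10), 5 for Ezh1 (0.11 to 0.13) and 2 for Ehmt2 (0.07), the latter being the 2 libraries just named as numbered 1. With the length trend removed, Kdm5c (0.02, adjusted p = 0.70), Kdm4b (0.10, adjusted p = 0.075), Setdb1 (0.06, adjusted p = 0.060) and Ehmt2 (0.07, adjusted p = 0.054) were not called.

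In shKDM1A cells, IL4 was followed by 1 member called higher (2.56%), Ehmt2 at 0.07 (adjusted p = 0.030), and 3 called lower (7.69%), Setd7 at -0.23 (adjusted p = 0.0016), Setd1a at -0.12 (adjusted p = 0.026) and Suv39h2 at -0.11 (adjusted p = 0.024), against 13.6% higher and 13.5% lower of all genes tested. The counts changed without the libraries that stood apart. With the length trend removed, 7 members were called higher and 3 lower, against 14.5% and 13.7% of all genes, and without libraries 1 and 3 of the IL4 group 5 were called higher and 2 lower, against 11% and 10.5%. Called higher in both were Jmjd1c (0.11 and 0.19), Kdm4b (0.13 and 0.18) and Kdm5c (0.12 and 0.10). Setd7, which methylates H3K4 and many other proteins, was the member whose 4 IL4 libraries lay entirely below the 4 untreated ones, and its fall was called in all 25 alternative fits, at -0.25 to -0.15. The call of Setd1a was lost without any of 4 libraries (-0.12 to -0.07), that of Suv39h2 without any of 3 (-0.10 to -0.08) and that of Ehmt2 without any of 5 (0.06 to 0.07). Without both libraries 1 and 3 none of the 3 was called, with Setd1a at -0.05 (adjusted p = 0.26), Suv39h2 at -0.10 (adjusted p = 0.11) and Ehmt2 at 0.06 (adjusted p = 0.18).

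The IL4 responses of the lines share no libraries, but both use the spread estimated over all 16 libraries, so their calls are not independent. In the main fit, 1 of the 13 members higher in shGFP cells, Ehmt2 (7.69%), was also called higher in shKDM1A cells, where it was the only such call (100%). Over all genes, 56.1% of the higher calls in shGFP cells and 54.3% of those in shKDM1A cells were shared, and 51.5% and 52.3% of the lower calls. Suv39h2, the only member called lower in shGFP cells, was 1 of 3 called lower in shKDM1A cells (33.3%). In the added fits the shared higher calls were other members. They were Kdm3b and Kdm7a with the length trend removed, and Kdm5c, Jmjd1c, Kdm4b and Ehmt1 without libraries 1 and 3 of the shKDM1A IL4 group. Shares over all genes were not counted for those fits. A smaller count in shKDM1A cells does not show a smaller response, and the difference in IL4 response was tested directly. No member was called in that test in limma, in which 3.56% of all genes were called higher in shKDM1A cells and 2.57% lower. Of the 39 members, 12 had an unadjusted p under 0.05, against 22.6% of all genes, and 2 were called with a trended prior variance, Setd1a and Setd7, both lower. The difference was negative in 32 members and positive in 7, with a median of -0.08 against -0.00 over all genes, and the median was -0.02 with the length trend removed and -0.02 without libraries 1 and 3. Kmt2d was at -0.31 (SE 0.13, adjusted p = 0.17) and Kmt2b at -0.22 (adjusted p = 0.13). With the length trend removed they were at -0.15 and -0.13, and without libraries 1 and 3 both were at -0.13, and neither was called in these 3 fits. With single libraries left out, Kmt2b was called without shKDM1A IL4 library 2 (-0.27), Setd1a without shKDM1A IL4 library 2 or 4 (-0.19 in each), Setd7 without shGFP control library 3 (-0.23), Kdm4a without shGFP control library 2 or shKDM1A control library 1 (-0.15 in each) and Kdm4c without shKDM1A IL4 library 1 (-0.21), all lower.

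A further list of 40 genes, of which 39 passed the filter, was also measured. It held subunits and partners of these enzymes, and 16 other enzymes, among them Setd5, Smyd4 and Smyd5. With the knockdown, 1 was called higher and 13 lower without IL4, and 5 higher and 16 lower with IL4. Over all genes 19.7% were higher and 18.4% lower without IL4, and 20.9% higher and 19.8% lower with it. With IL4 the counts were 6 and 15 with the length trend removed, against 22.3% and 18.8% of all genes, and 2 and 8 without libraries 1 and 3, against 17.2% and 14.4%. Without IL4 the latter fit gave 3 higher and 12 lower. Of the 9 COMPASS subunits, 4 were lower without IL4 and 6 with IL4, and Men1 was higher with IL4. Of the 9 PRC2 subunits, 4 were lower without IL4 and 2 lower and 1 higher with IL4, and of the 6 HP1 proteins and H3K9 partners 2 were lower without and 3 with IL4. Without IL4 the lowest of this list was Setd5 (-0.26), and Smyd4 was called higher (0.16). With IL4 the lowest was the heterochromatin protein Cbx5 (-0.32) and the highest Smyd5 (0.15). With IL4 in shGFP cells 9 were higher and 5 lower, led by the PRC2 subunit Jarid2 (0.35, adjusted p = 2.8e-06) and the MLL cofactor Men1 (-0.21, adjusted p = 0.00015), and in shKDM1A cells 7 were higher and 4 lower, led by the same genes at 0.43 (adjusted p = 2.5e-07) and -0.19 (adjusted p = 0.00042). Over all genes the shares were 13.1% higher and 13.7% lower in shGFP cells and 13.6% and 13.5% in shKDM1A cells. Without libraries 1 and 3, 7 genes of this list were higher and 2 lower in shKDM1A cells. Smyd5 was the gene of this list with a called difference in IL4 response, at 0.19 (adjusted p = 0.0034): its difference with IL4 was -0.09 in shGFP and 0.10 in shKDM1A cells.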

How the data were processed

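RNA-seq libraries of RAW cells were analysed, 4 for each of 4 groups assigned from their labels. Reads were aligned to mm9 with HISAT2 by the authors, who used HOMER to count tags on RefSeq exons (both strands, 1 row a gene) and DESeq2 for their comparisons. For each library the authors deposited log2 expression values, whose transformation is not given in the sources used here. These vary little for weakly expressed genes, so no count model was used. Columns of the authors' comparisons (fold change, p and adjusted p) were left unused. The table for bone marrow-derived macrophages holds nothing else and was read only for which genes it lists. All 39 members are in both tables.

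A gene was kept if 4 or more libraries reached a value of 1 (12905 of 25094 genes). A model of 4 group means was fitted with limma 3.58.1 in R 4.3.3 (lmFit, contrasts.fit and eBayes), with Benjamini-Hochberg adjustment per comparison. On simulated data for the knockdown without IL4 (12905 genes), the fit recovered 99 of 100 genes changed by 0.5 and 99 of 100 changed by 0.3, with 7 false calls. Members changed by at least 0.3 are given by library, and others by level and count. A change of sign in a gene called by neither fit was not counted as a reversal. Alternatives were the filter, the groups fitted, a replicate block, centring on medians, quantile normalization, a prior variance with a trend, each library left out and a minimum difference of 0.3. Removing a lowess trend over transcript length (span 0.3), and leaving out libraries 1 and 3 of the shKDM1A IL4 group, were added after seeing the data. Members and lists were chosen with earlier results of these data known. No other data of the series were analysed here.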

Additional observations from a re-analysis of the deposited data

Results flagged for a closer look

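In each group of 4 libraries, the highest or lowest library was compared with the range of the group for every member. Of 156 groups, 9 (5.77%) held a library whose gap to the next, over the range, was above Dixon's critical value, and chance gives about 1 in 20. Values are log2 expression. Setd1a was at 11.20 in shGFP control library 2 against 11.22 to 11.23 in the others. Setd1b was at 10.04 in shGFP IL4 library 1 against 10.07 in the others, and at 9.55 in shKDM1A control library 1 against 9.70 to 9.72. Suv39h1 was at 10.81 in shKDM1A IL4 library 3 against 10.90 to 10.91, and Suv39h2 was at 9.33 in shGFP IL4 library 1 against 9.23 to 9.25. Kdm6a was at 9.09 in shGFP IL4 library 2 against 9.00 in the others. Kdm2a was at 11.16 in shKDM1A control library 1 against 11.24 to 11.25, Kdm8 at 7.64 in shGFP IL4 library 1 against 7.54 to 7.56, and Smyd2 at 10.71 in shGFP control library 1 against 10.63 to 10.64. Of the 9, 3 were in shGFP IL4 library 1, 2 in shKDM1A control library 1 and 1 in shKDM1A IL4 library 3.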

How the results depend on the processing

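Counts of members called higher and lower were 13 and 1 for IL4 in shGFP cells, 8 and 7 for the knockdown without IL4, 4 and 19 for the knockdown with IL4, 1 and 3 for IL4 in shKDM1A cells, and 0 and 0 for the difference in IL4 response. With each library left out in turn they ranged from 8 to 14 and 0 to 2, 6 to 9 and 5 to 7, 3 to 5 and 15 to 20, 0 to 3 and 1 to 4, and 0 to 0 and 0 to 2. Requiring a difference over 0.3 left 0 and 0, 3 and 0, 2 and 2, and 0 and 0 in the first 4 comparisons. For IL4 in shGFP cells, no filter left 0 lower and a fit of only the groups compared 2. For IL4 in shKDM1A cells, no filter left 1 lower, only the groups compared 0 higher and 1 lower, and median centring 2 higher. A trended prior variance gave 2 lower for the difference. With the length trend removed, 7 were higher for IL4 in shKDM1A cells. Without both shKDM1A IL4 libraries 1 and 3, 8 were lower for the knockdown with IL4, and 5 higher for IL4 in shKDM1A cells. Kdm5c turned to 0.026 (not called) for the knockdown with IL4 with the length trend removed, and Phf8 to 0.088 for IL4 in shKDM1A cells without those libraries. Over single members and Kdm1a in the 5 comparisons, the settings other than the 2 added after seeing the data left 4378 results on the same side of the threshold, 140 lost one and 42 gained one. The causes of these moves were not tested.

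The replicate numbers did not pair the libraries: deviations from group means of same-numbered libraries had correlations of -0.34 to 0.27 (3 of 24 pairs over 0.1), and of different-numbered ones -0.33 to 0.36. With a replicate block the counts were 12 and 1, 7 and 7, 4 and 19, 1 and 3, and 0 and 0. For IL4 in shKDM1A cells the member called higher was then Kdm4b and no longer Ehmt2.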
